A study of Mus musculus with 194 samples.

Results

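The genes described here are 9 of the 23420 gene names in the deposited expression table: Ccr7, S1pr1, Klf2, Cd44, Cxcr3, Itga4, Itgb1, Itgb7 and Itgae. They were chosen by name, as genes that direct where T cells travel and what they adhere to, and all 9 had a row in the table. The libraries were single CD8+ T-cells, taken from the spleens of 6 C57BL/6J mice of both sexes aged 4 to 16 weeks, and single cells of L1210, a lymphocytic leukemia line of the mouse strain labelled DBA subline 212. The T-cells had been activated for 30 h with antibodies against CD3 and CD28 and were then grown in medium with IL2 in a microfluidic device that records which cells are sisters and cousins, whereas L1210 cells were grown there without activation or IL2. Without 4 doublets and 5 libraries under 1000 detected genes, 97 CD8+ T-cells in 34 lineages remained, and without 2 doublets and 5 such libraries, 81 L1210 cells in 26 lineages.

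A naive T-cell recirculates through lymph nodes, which it enters with the chemokine receptor CCR7 and leaves along a gradient of sphingosine 1-phosphate sensed by S1PR1. The transcription factor KLF2 keeps S1pr1 expressed in resting cells and is lost on activation. Effector cells lower this set and raise adhesion and inflammatory homing receptors, among them the hyaluronan receptor CD44 and the chemokine receptor CXCR3. Integrins are dimers of an alpha and a beta chain. The chains measured here pair as alpha 4 with beta 1 (VLA-4), alpha 4 with beta 7 (gut homing) and alpha E with beta 7 (CD103, which binds E-cadherin on epithelium). Gzmb, which encodes the cytotoxic protease granzyme B, served as the effector reading against which the 9 genes were set.

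Values are in TPM, transcript abundances scaled to a fixed sum per library, which compare genes per unit of transcript length, and differences are given in ln(TPM + 1). TPM keep no read depth, so the number of detected genes per cell stands for library quality: 2639 to 10905 with a median of 6862 in CD8+ T-cells, and 1610 to 10454 with a median of 8402 in L1210 cells. The share of Rn45s, the ribosomal RNA precursor, ran from 0.984 to 41.8% in CD8+ T-cells and from 11.4 to 79.3% in L1210 cells, and no call among the 9 genes changed without the highest L1210 library. A value of 0 TPM says only that no transcript was assigned to the gene in that library. Mouse and culture of a cell are not in the labels. Lineages, each descended from 1 founding cell, therefore were the replicates, except in the main test of likeness among relatives. That test reassigned single cells over the pedigree, so its p values take cells as exchangeable. In the other main tests, p values cover only the spread between lineages. Lineage and mouse cannot be told apart. The T-cell markers were Cd3e, Cd3d, Cd3g, Cd8a and Cd8b1. At least 1 was above 0 in 97 of 97 cells labelled CD8+ T-cells (summed TPM 395 to 5350). In L1210 cells at least 1 was above 0 in 33 of 81 cells (summed TPM up to 38.4). Cd8b1 was above 0 in 23 L1210 cells, Cd8a in 10 and Cd3d in 8, while Cd3e and Cd3g were at 0 in every L1210 cell. Among cells labelled CD8+ T-cells, the CD8 coreceptor genes went against the label in 1 lineage. In the cells from CD8_83 to CD8_86, Cd8b1 was at 0 in all 4 and Cd8a was at 1.87, 0, 0 and 0 TPM, beside medians of 806 and 364 TPM over the 97 cells, with Cd3e at 408 to 557 TPM and Cd4 at 0. The lineage from CD8_92 to CD8_94, the next lowest in Cd8b1, held 53.7, 34.8 and 48.6 TPM of it. These 2 lineages were also the lowest in Ccr7. Results were therefore computed again without the first and without both, alternatives added after seeing the data. At least 1 of the B-cell markers Cd79a, Cd79b and Ms4a1 was above 0 in 81 of 81 L1210 cells. Their median sum was 767 TPM, with Cd79a above 0 in 80 cells, Cd79b in 79 and Ms4a1 in 1. In CD8+ T-cells at least 1 was above 0 in 49 cells with a median sum of 2.67 TPM, and Cd79b in 47. In CD8+ T-cells, NK-cell markers were found in 3 cells with Ncr1 at 0, myeloid markers in 21 with Lyz2 at 0, CD4 or regulatory markers in 14, and erythroid markers in 5.

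In the GENCODE annotation of GRCm38, the chemokine receptor genes are Ccr7 on chr11:99144196-99155077 and Cxcr3 on chrX:101731535-101734269, and S1pr1 is on chr3:115710433-115715072, all on the minus strand. Klf2 lies on the plus strand at chr8:72319033-72321656, and Cd44 on the minus strand at chr2:102811141-102901665. Of the integrin chains, Itga4 (chr2:79255426-79333123), Itgb1 (chr8:128685654-128733200) and Itgae (chr11:73090583-73147446) are on the plus strand and Itgb7 (chr15:102215995-102231944) is on the minus strand. An exon of Itga4 overlaps Cerkl on the opposite strand. Whether the reads were counted by strand is not given in the sources used here, so low Itga4 values cannot be told apart from reads of Cerkl.

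The sequences upstream of 6 of the 9 genes were in the RefSeq promoter table (GRCm38.p6). Those of Cd44, Itgb1 and Itgb7 are shown because, over lineages, Cd44 and Itgb1 varied together while Itgb7, the other beta chain, varied with a different set. Each run is the 250 bases before the RefSeq start, 5' to 3' on the strand of the gene, and capitals mark CACCC or its reverse complement GGGTG, the core letters that factors of the KLF family bind.
Cd44, chr2:102901666-102901915, minus strand: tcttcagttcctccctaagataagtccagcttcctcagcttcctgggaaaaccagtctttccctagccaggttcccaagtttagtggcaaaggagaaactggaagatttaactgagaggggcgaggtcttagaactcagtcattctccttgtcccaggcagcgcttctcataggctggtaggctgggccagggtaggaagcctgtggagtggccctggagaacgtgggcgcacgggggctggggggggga
Itgb1, chr8:128685404-128685653, plus strand: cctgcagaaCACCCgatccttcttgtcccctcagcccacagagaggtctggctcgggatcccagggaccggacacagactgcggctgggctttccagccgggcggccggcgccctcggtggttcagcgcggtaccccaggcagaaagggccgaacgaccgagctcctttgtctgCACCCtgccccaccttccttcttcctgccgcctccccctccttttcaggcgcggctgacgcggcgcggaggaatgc
Itgb7, chr15:102231936-102232185, minus strand: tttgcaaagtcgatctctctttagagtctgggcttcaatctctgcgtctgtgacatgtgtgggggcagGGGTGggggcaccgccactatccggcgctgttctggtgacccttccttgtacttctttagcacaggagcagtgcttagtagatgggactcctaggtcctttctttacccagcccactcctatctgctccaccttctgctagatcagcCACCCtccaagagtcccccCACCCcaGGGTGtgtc
The window of Cd44 held no match, that of Itgb1 2 and that of Itgb7 4, and Itga4 had 4, Klf2 1 and Cxcr3 0. Since 52% of the 32851 promoters in the table hold at least 1 match in a window of this length, a match describes these letters and no more.

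Activated CD8+ T-cells expressed genes of both sets at once. Ccr7 was above 0 TPM in 95 of 97 cells, from 0 over a median of 356 to a maximum of 1669 TPM, and its lineage means ran from 1.41 to 7.09 in ln(TPM + 1). Cxcr3, the receptor for interferon-induced chemokines, was above 0 in 89 cells with a median of 203 and a maximum of 1148 TPM. Itgb7 was above 0 in 95 cells with a median of 178 and a maximum of 888 TPM. These 3 genes were therefore found in most cells, and 87 of the 97 cells carried both Ccr7 and Cxcr3. S1pr1 was above 0 in 51 cells (median 1.29, maximum 207 TPM) and Klf2 in 36 (median 0, maximum 153 TPM), so the exit receptor and its regulator were found less widely than Ccr7. Every cell with S1pr1 and every cell with Klf2 also had Ccr7, which 95 of all 97 cells had, so this overlap says nothing about a link. S1pr1 and Klf2 occurred together in 22 cells. Cd44 was above 0 in 61 cells with a median of 7.78 and a maximum of 228 TPM.

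Of the other integrin chains, Itga4 was above 0 in 84 cells but at a median of 2.45 and a maximum of 83.8 TPM. Itgb1 was above 0 in 74 cells with a median of 10.6 and a maximum of 85.7 TPM. Itgae was above 0 in 71 cells with a median of 12.9 and a maximum of 309 TPM, and 70 of these 71 also had Itgb7, the only beta chain it pairs with. Since Itgb7 was above 0 in 95 of all 97 cells, this overlap says nothing about the pair. A median of 7 of the 9 genes was above 0 in a CD8+ T-cell, and 11 cells had all 9.

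**Figure D1:**
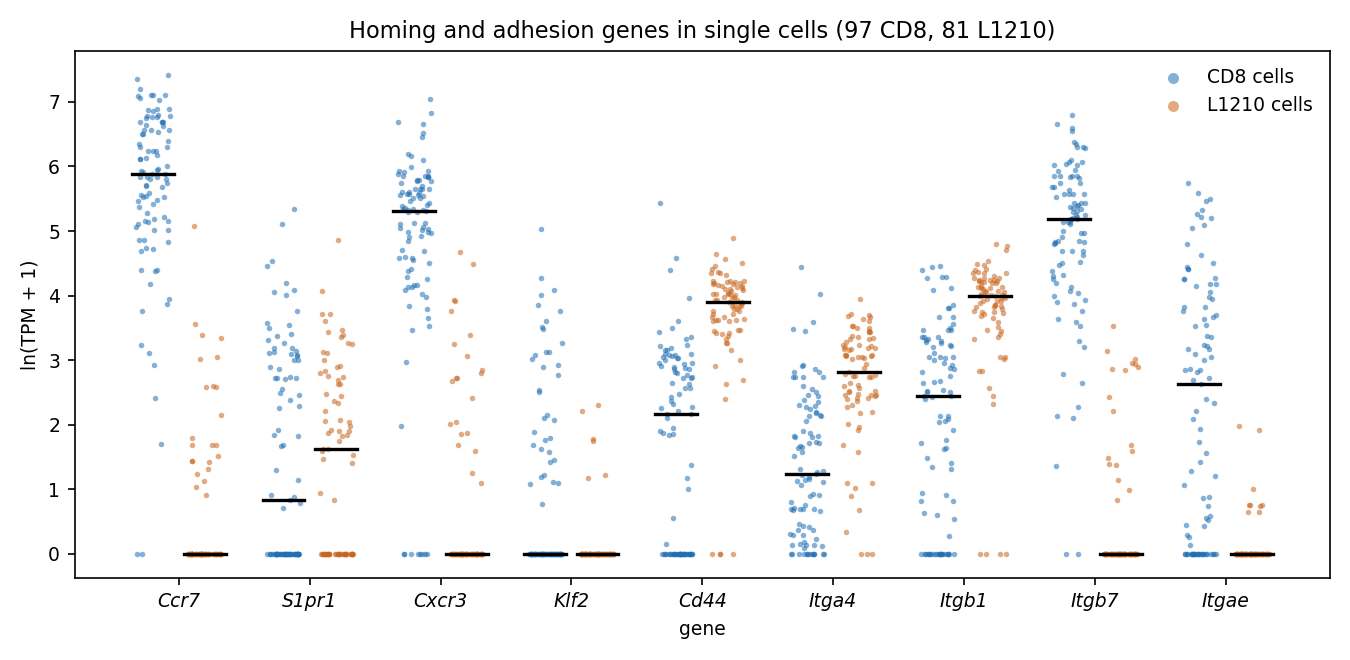
Expression of the 9 genes as ln(TPM + 1) (vertical axis) in each of 97 CD8+ T-cells (blue) and 81 L1210 cells (orange); each point is a cell and black bars are medians over cells. Ccr7, Cxcr3 and Itgb7 are high in nearly all CD8+ T-cells and at 0 in most L1210 cells, whereas Cd44, Itga4 and Itgb1 lie higher in L1210 cells.

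Ordered by the mean of lineage means in ln(TPM + 1), Ccr7 was highest in CD8+ T-cells at 5.71 ± 1.13 (SD, n = 34 lineages), followed by Itgb7 at 4.83 ± 1.17 and Cxcr3 at 4.77 ± 1.28. Itgae at 2.27 ± 1.73, Itgb1 at 1.94 ± 1.22, Cd44 at 1.80 ± 1.12, S1pr1 at 1.75 ± 1.45, Itga4 at 1.54 ± 0.809 and Klf2 at 0.882 ± 1.04 came next. Of the 8 neighbours in this order, 3 differed beyond the spread between lineages (2-sided sign-flip permutation test over lineages, adjusted over the 8). The order came from the same lineage means, so the neighbours and the direction of each difference were set by the values tested. Ccr7 exceeded Itgb7 in 29 of 34 lineages (adjusted p = 4e-05), Cxcr3 exceeded Itgae in 29 (adjusted p = 4e-05) and Itga4 exceeded Klf2 in 26 (adjusted p = 0.00549). Itgb7 and Cxcr3 were not separated (adjusted p = 0.882), nor were the neighbours from Itgae down to Itga4 (adjusted p from 0.614 to 0.882).

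Sisters and cousins resembled each other in 4 of the 9 genes: Itgae, Ccr7, Itgb1 and S1pr1. The question was whether descendants of 1 founding T-cell share their trafficking state. Relatives also share mouse and culture, so lineage cannot be told apart from these here. The measure was how far 2 cells lay apart in ln(TPM + 1). It was averaged over 115 related pairs (43 sisters, 72 cousins) against 4541 pairs from different lineages. Of the 9997 genes tested, 6.80% were called more alike among relatives and none less alike (680 and 0 genes, permutation test that reassigned cells over the pedigree, adjusted p under 0.05), and 4 of the 9 genes were called. The difference between relatives set against that between unrelated cells had a median of -26.5% over the 9 and of -7.77% over all genes tested.

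Itgae had the largest reduction of the 9. It differed by 1.18 between relatives and 2.22 between unrelated cells, 21 of 27 lineages with 2 or more cells were more alike than unrelated cells, and the permutation p of 2e-05 was the smallest that 100000 resamples can give (adjusted p = 0.00171). Among these 27 lineages, 12 had Itgae above 0 in every cell, 2 in none and 13 in some cells only. In the lineage from CD8_59 to CD8_62, the 4 cells held 154, 161, 183 and 206 TPM of Itgae. In the lineage from CD8_38 to CD8_41, all 4 cells were at 0, as were the 4 cells from CD8_83 to CD8_86. The ranges of such lineages do not overlap, although mixed lineages lay between them, and these lineages were picked for display after their values were seen. Itgae also went with the numbers of the cells. Its lineage means reached 3.04 at most from CD8_1 to CD8_48. They ran from 3.16 to 5.50 from CD8_49 to CD8_76, except for CD8_69 at 0, and were mixed from CD8_77 on. The labels do not say what the numbers stand for, and their part in the likeness was not tested.

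Ccr7 differed by 0.848 between relatives and 1.42 between unrelated cells, with 22 of 27 lineages more alike (adjusted p = 0.00171). It was above 0 in every cell of 26 of the 27 lineages, so relatives shared the level rather than presence alone. The lineage from CD8_87 to CD8_90 held 1216, 1339, 704 and 1669 TPM of Ccr7. That from CD8_83 to CD8_86 held 4.46, 0, 50.7 and 0 TPM, and that from CD8_92 to CD8_94 held 42, 24.4 and 17.7 TPM. The 4 cells of the first lay far above the 7 cells of the other 2, with no overlap, but these lineages were picked by their Ccr7 values. The other 2 are also the lineages lowest in Cd8b1. Leaving out each lineage in turn kept the percent change of Ccr7 between -43.9 and -33.1 and of Itgae between -51.1 and -42.6, and neither gene lost its call in any alternative that was run. Without both lineages low in Cd8b1, the change of Ccr7 was -26.1% (adjusted p = 0.0193) and that of Itgae -42.4% (0.00734).

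Itgb1 differed by 1.14 between relatives and 1.70 between unrelated cells, with 18 of 27 lineages more alike (adjusted p = 0.00171). In the lineage from CD8_1 to CD8_4 the 4 cells held 83.8, 71.6, 85.7 and 44.1 TPM of Itgb1, whereas the 4 cells from CD8_65 to CD8_68 were all at 0. S1pr1 differed by 1.26 and 1.77, with 18 of 27 lineages more alike (adjusted p = 0.0179). The 4 cells from CD8_87 to CD8_90, whose Ccr7 mean was the highest among lineages of 2 or more cells, also held 164, 207, 25.1 and 28.0 TPM of S1pr1, and 5 of the 27 lineages had no cell above 0. The call of Itgb1 was lost in a sign-flip test over lineages (adjusted p = 0.0768). That of S1pr1 was lost in the sign-flip test (adjusted p = 0.216), with sister pairs only (0.255), with a pseudocount of 0.1 TPM (0.0568), without both lineages low in Cd8b1 (0.0687) and without the lineage from CD8_87 to CD8_90 (p = 0.0039 by permutation, against a largest p called of 0.0034).

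The other 5 genes were not called, although each was more alike among relatives by its mean. Klf2 changed by -26.5% (1.01 against 1.37, adjusted p = 0.0520), and 10 of the 27 lineages had no cell with Klf2 above 0. In the lineage from CD8_59 to CD8_62 the 4 cells held 11.3, 70.6, 21.8 and 58.7 TPM of Klf2. Itgb7 changed by -19.0% (adjusted p = 0.0929), Cd44 by -19.2% (adjusted p = 0.125), Cxcr3 by -18.8% (adjusted p = 0.153) and Itga4 by -7.67% (adjusted p = 0.511). For Itga4 only 13 of 27 lineages were more alike. Klf2 and Itgb7 passed the threshold in 3 alternatives each, among them the removal of the ribosomal RNA precursor Rn45s from the total (adjusted p = 0.0477 and 0.0458). Klf2 also passed, at -26.8 to -29.9% with p from 0.00080 to 0.0032 against a largest p called of 0.0034, when any 1 of 10 lineages was left out, those that begin with CD8_9, CD8_13, CD8_14, CD8_29, CD8_38, CD8_44, CD8_49, CD8_75, CD8_95 and CD8_99.

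**Figure D2:**
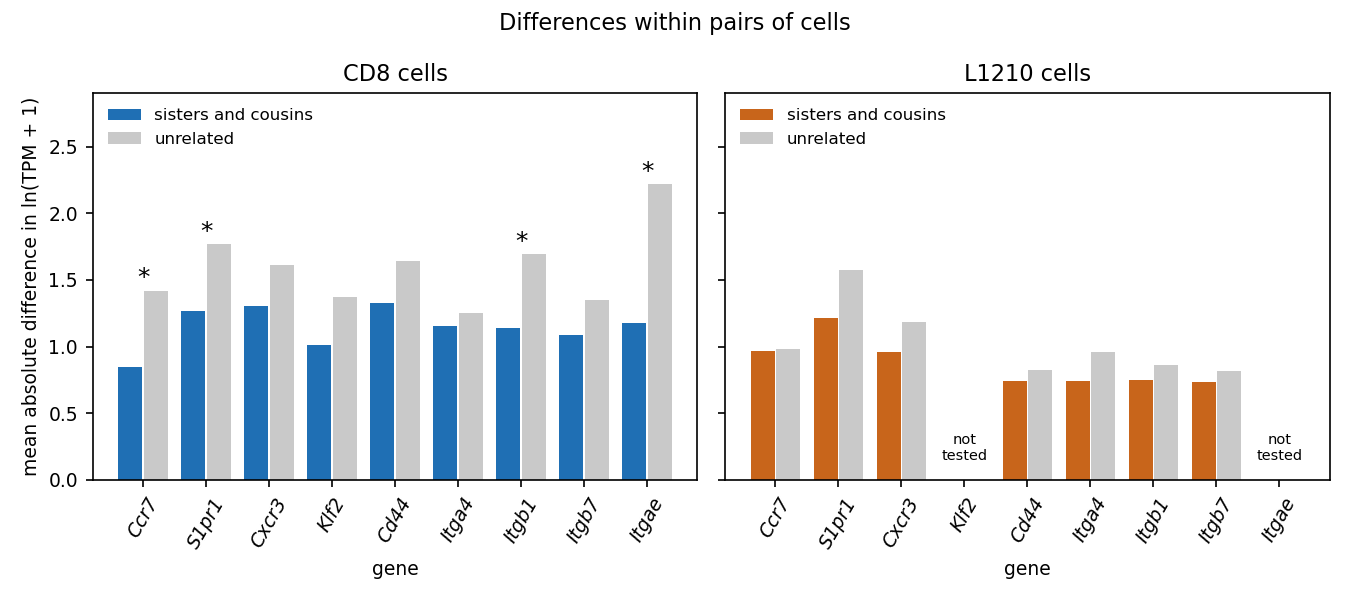
Mean absolute difference in ln(TPM + 1) within pairs of cells (vertical axis), for sisters and cousins (coloured) and for pairs from different lineages (grey), in CD8+ T-cells (left) and L1210 cells (right). Asterisks mark adjusted p under 0.05 in the permutation test: Ccr7, S1pr1, Itgb1 and Itgae in CD8+ T-cells and no gene in L1210 cells, where Klf2 and Itgae were too rarely expressed to be tested.

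Sisters and cousins were both alike, and the difference between them was not tested. As a description over pairs that share cells, Spearman's rho of Itgae was 0.61 in 43 sister pairs and 0.61 in 72 cousin pairs, and that of Ccr7 was 0.51 and 0.54. Itgb1 had 0.49 in sisters and 0.42 in cousins, S1pr1 0.21 and 0.29, Klf2 0.36 and 0.33, and Cxcr3 0.31 and 0.34. Cd44 had 0.20 and 0.14, Itgb7 0.28 and 0.15, and Itga4 0.11 and 0.028. Gzmb, with 0.85 and 0.73, was above all of these. The mean difference of Itgae was 1.28 in sisters and 1.11 in cousins, and that of Ccr7 0.899 and 0.817.

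In L1210 cells none of the 7 genes tested was called, where 3.33% of 10536 genes were called more alike (351 genes). Itga4 changed by -22.3% (adjusted p = 0.0825) and S1pr1 by -23.0% (adjusted p = 0.0972). Cxcr3 changed by -18.9%, Itgb1 by -13.2%, Cd44 by -10.4%, Itgb7 by -9.59% and Ccr7 by -0.9998% (adjusted p from 0.296 to 0.940). The difference between cell types was itself tested by permuting the cell type over 27 and 24 lineages, a test chosen after these values were seen. It was largest for Itgb1 (-0.542 in CD8+ T-cells against -0.0268 in L1210 cells, p = 0.0121, adjusted p = 0.657) and Ccr7 (-0.541 against -0.0798, p = 0.0192, adjusted p = 0.757). Without the lineage at 0 for Cd8b1, permutation p was 0.00795 for Itgb1 and 0.178 for Ccr7. None of the 9158 genes shared by both tables was called, and 5.70% had an unadjusted p under 0.05, so a likeness particular to T-cells was not shown for any of the 7.

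Ccr7 was lower in lineages with more Gzmb. The comparison asks whether the homing genes follow the effector state, and it used the means of the 34 lineages. Gzmb itself was above 0 in 87 of 97 CD8+ T-cells (median 607, maximum 7488 TPM), with lineage means from 0.203 to 8.82. Of the 9996 other genes tested, 4.34% were called (permutation test of Spearman's rho, adjusted p under 0.05), with 422 positive (4.22%) and 12 negative (0.120%). By Pearson's r 3.94% were called, and 18.8% had an unadjusted p under 0.05 by rho. Among the 9 genes, Ccr7 was the only one called.

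For Ccr7, Spearman's rho was -0.54 (adjusted p = 0.0389) and Pearson's r was -0.42 (adjusted p = 0.144). Without the 2 lineages farthest from the median of Gzmb, rho was -0.50 and r was -0.38. The 3 lineages lowest in Gzmb (means 0.203, 1.12 and 1.27) had Ccr7 means of 6.53, 6.62 and 6.28. Lineages with Gzmb means of 7.91 to 8.82 had Ccr7 means from 1.41 to 5.76. The levels overlapped between these ends, since lineages of intermediate Gzmb reached 7.07 and 7.09 in Ccr7, the latter the single cell CD8_82. The lineage from CD8_83 to CD8_86 combined the lowest Ccr7 mean with Gzmb values of 2447, 2102, 5274 and 2219 TPM. The negative sign held in all 11 alternatives, with rho or r from -0.62 to -0.42, but 5 of them ended the call: Pearson's r, residuals on detected gene number (adjusted p = 0.0907), omission of the 2 lineages (0.0815), all genes above 0 TPM (0.0673) and totals without Rn45s (0.0520). Leaving out any 1 of 9 lineages also did so, with rho no weaker than -0.50 and p up to 0.0040 against a largest p called of 0.00216. These were the lineages that begin with cells CD8_9, CD8_16, CD8_25, CD8_33, CD8_36, CD8_49, CD8_59, CD8_83 and CD8_92. Without the lineage at 0 for Cd8b1, rho was -0.51 (adjusted p = 0.0533), and without both lineages low in Cd8b1 it was -0.46 (adjusted p = 0.109), so the call was not kept in either. Over the same lineages, rho of Ccr7 with the number of detected genes was -0.023 and that of Gzmb was 0.47. With the share of Rn45s, rho of Ccr7 was 0.41 and that of Gzmb was -0.35. The part of either measure in the relation was not tested beyond the alternatives above.

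Cd44, which rises on effector and memory T-cells, had the opposite sign. Its rho with Gzmb was 0.50 (adjusted p = 0.0586) and its r was 0.56 (adjusted p = 0.0284), with 0.46 and 0.55 without the 2 farthest lineages. The lineage from CD8_92 to CD8_94, with Gzmb at 4221, 5687 and 2078 TPM, held 228, 97.4 and 7.78 TPM of Cd44. The lineages from CD8_65 to CD8_68 and from CD8_49 to CD8_50, with Gzmb means of 1.27 and 2.13, had Cd44 at 0 in all cells. So did the lineage that begins with CD8_36 (Gzmb mean 2.81) and the single cell CD8_81 (6.30). Cd44 passed the threshold in 5 of 11 alternatives and without the lineage at 0 for Cd8b1 (0.52, adjusted p = 0.0416), but not without both lineages low in Cd8b1 (0.48, adjusted p = 0.0947). It passed when any 1 of 7 lineages was left out, those that begin with CD8_1, CD8_14, CD8_33, CD8_70, CD8_78, CD8_81 and CD8_83, with rho from 0.51 to 0.55. Cd44 was at 0.37 (adjusted p = 0.264) on residuals on detected gene number, with which its own rho was 0.61. The part of detection in this relation was not tested beyond that value.

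The remaining 7 genes were not called. S1pr1 had rho -0.43 (adjusted p = 0.121), Itgae -0.32 (0.310), Klf2 -0.27 (0.428), Itga4 -0.23 (0.523), Itgb7 -0.21 (0.553), Itgb1 0.25 (0.458) and Cxcr3 -0.032 (0.956), all by the permutation test of lineages. Thus 7 of the 9 coefficients were negative, with a median of -0.23 beside 0.12 over all genes tested. S1pr1 was at 0 in all cells of 6 lineages, whose Gzmb means were 4.93, 6.86, 6.99, 7.79, 7.93 and 8.04, and in none of the 7 lineages with Gzmb means up to 3.99. Cxcr3 was nearly flat across the range of Gzmb, and its sign changed in 2 alternatives and without both lineages low in Cd8b1 (0.025).

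**Figure D3:**
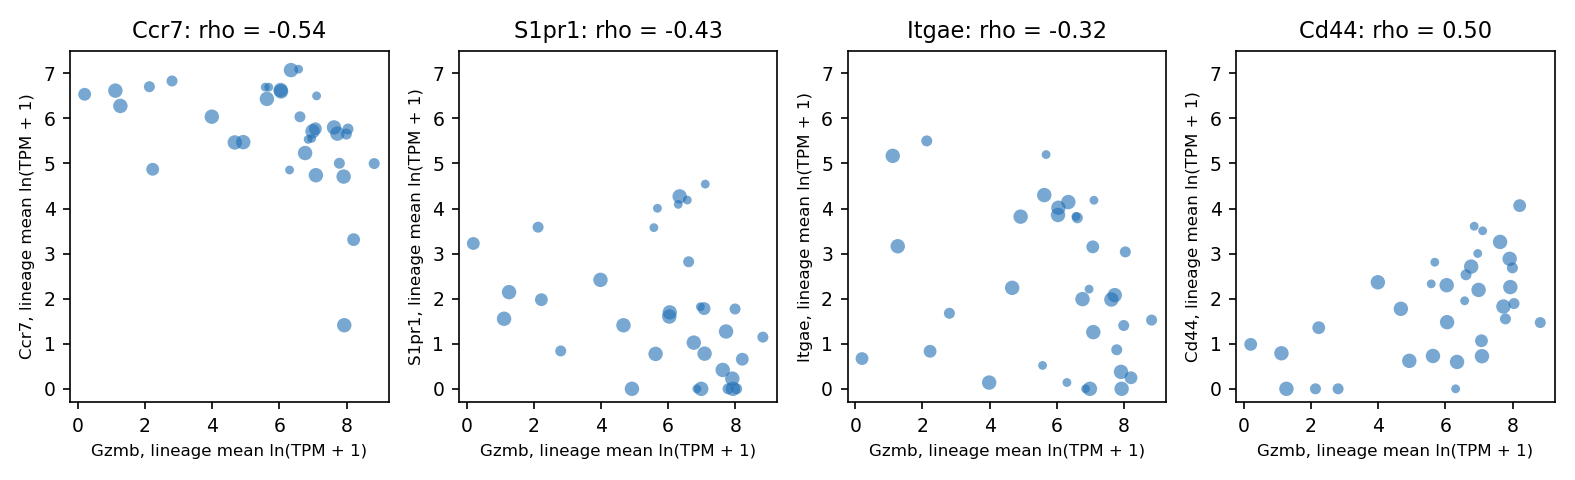
Lineage means of Ccr7, S1pr1, Itgae and Cd44 (vertical axes) against that of Gzmb (horizontal axes), all in ln(TPM + 1), in 34 CD8+ T-cell lineages; larger points are lineages of more cells. Spearman's rho is -0.54, -0.43, -0.32 and 0.50, and only that of Ccr7 passed the threshold.

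**Figure D4:**
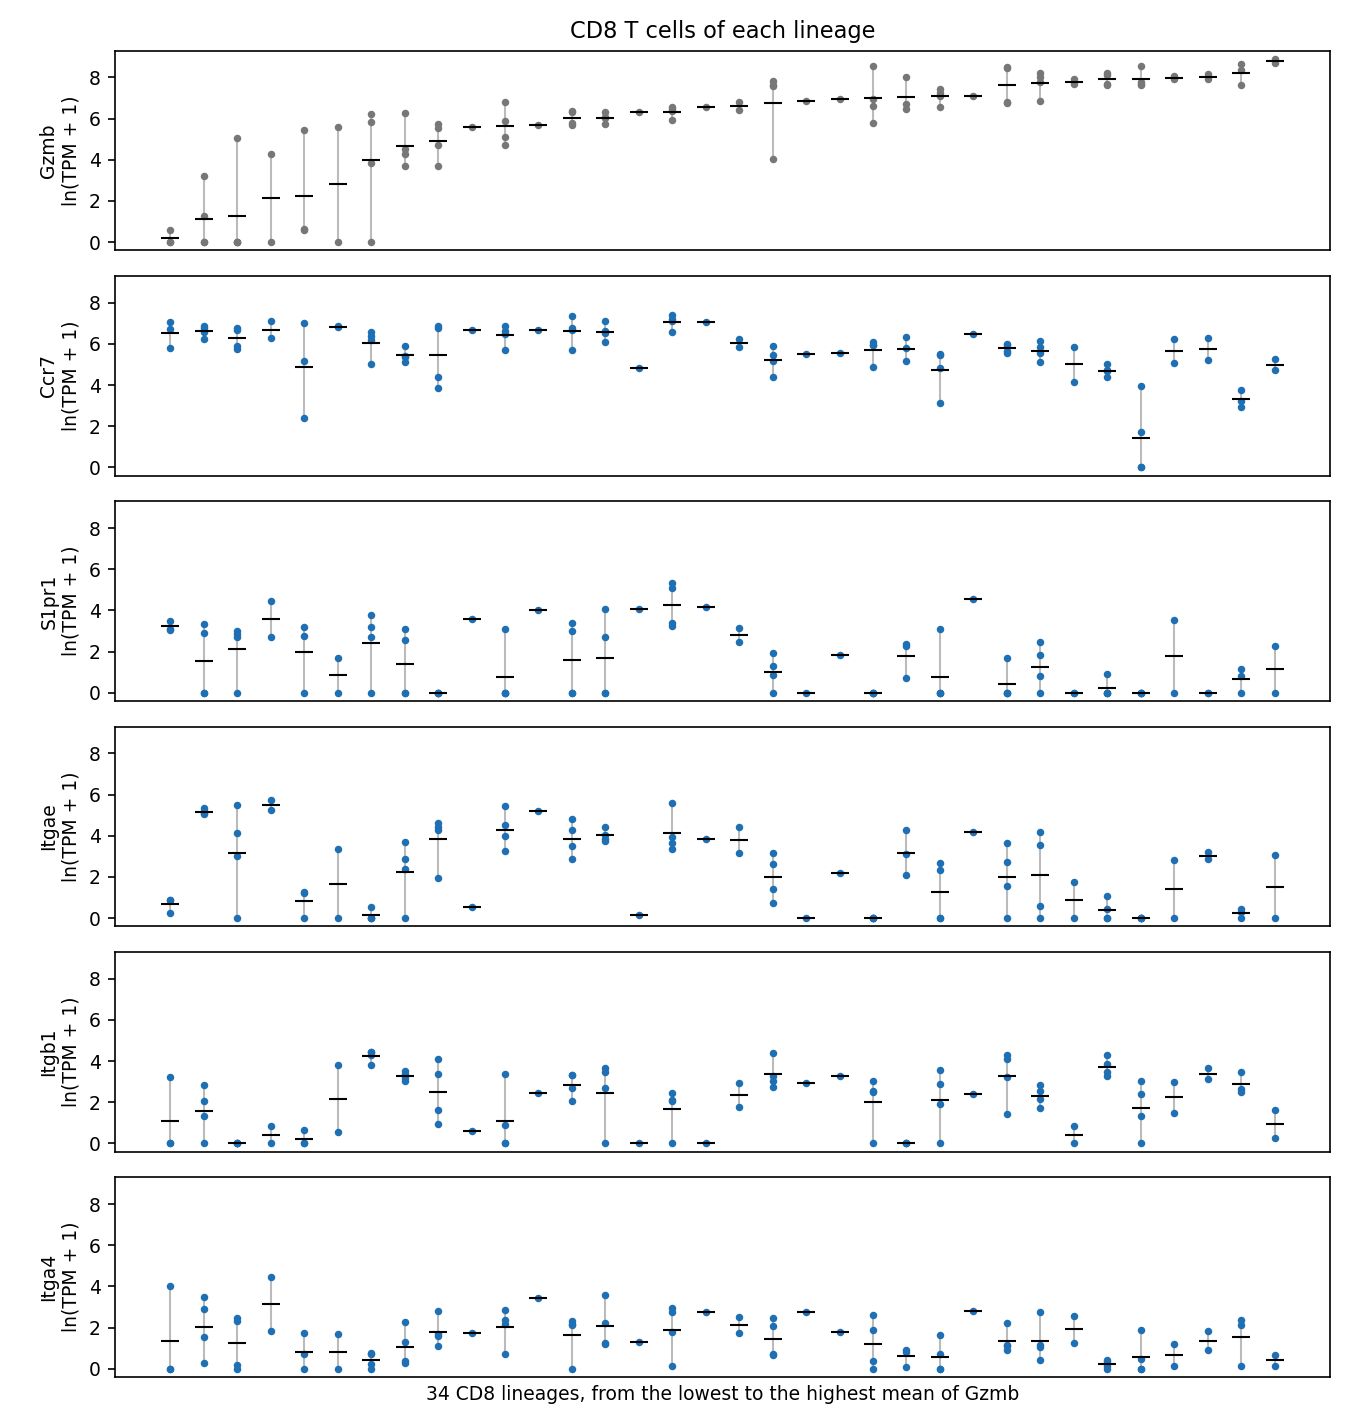
Expression in ln(TPM + 1) (vertical axes) of Gzmb and of 5 of the genes in every CD8+ T-cell, by lineage (horizontal axis), ordered by the mean of Gzmb; points are cells, grey lines span a lineage and black dashes are its mean. The median SD within lineages is 0.564 for Ccr7, 0.935 for Itgae and 0.924 for Itga4, while lineage means of Itgae spread from 0 to 5.50, and Ccr7 is lowest in 2 lineages near the right end.

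Genes of related function were listed beside the 9, and their counts stand beside the 4.34% of all genes tied to Gzmb. Of 22 other homing and adhesion genes tested, 1 was called, a share near that background, namely the early activation antigen Cd69, which retains T-cells in tissue by removing S1PR1 from the surface (rho 0.58, adjusted p = 0.0236). Of 10 naive and memory associated genes, Tcf7, the transcription factor of naive and stem-like T-cells, was called at -0.54 (adjusted p = 0.0363), next to Ccr7 among the 12 negative genes. Of 8 effector associated genes tested, the costimulatory receptor Tnfrsf9 (0.66, adjusted p = 0.00735) and the IL2 receptor chain Il2rb (0.54, adjusted p = 0.0391) were called. The effector list held 14 genes, and the others were too rarely found in CD8+ T-cells to be tested. Zeb2 was above 0 in 14 of 97 cells, Gzma and Ifng in 9 each, Prdm1 in 8, Gzmc in 7 and Klrg1 in 0. Gzmb thus stood for an effector state that these genes did not show. None of 10 integrin binding partners and activators was.

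In likeness among relatives, beside a background of 6.80% (CD8+ T-cells) or 3.33% (L1210 cells) over all genes, 2 of the 22 other homing genes were called in CD8+ T-cells, namely the adhesion molecule Cd48 and the chemokine receptor Cxcr6. Cd48 changed by -32.1% (adjusted p = 0.00171) and Cxcr6 by -25.3% (0.0262), in the same permutation test. The naive and memory list had 4 of 10 called (Dapl1, Eomes, Tcf7 and Bcl2) and the effector list 5 of 8 (Il2ra, Lgals1, Tbx21, Tnfrsf9 and Id2). The integrin partners had 1 of 10, Rasgrp2, an activator of the integrin switch RAP1. In L1210 cells the calls were 0 of 18 homing genes, 2 of 7 naive and memory genes (Bach2 and Il7r), 2 of 4 effector genes (Il2ra and Lgals1) and 0 of 8 integrin partners.

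The genes fell into sets that varied together over the 34 lineage means. These coefficients share libraries and detection, and those of Itgae also its pattern over cell numbers given above, and are descriptions. Itgae and Itgb7, the 2 chains of CD103, had rho 0.74, and from 0.71 to 0.77 with any lineage left out. Among all other genes tested, Itgb7 ranked 3 of 9996 by likeness to Itgae and Itgae ranked 5 by likeness to Itgb7. In the lineage from CD8_49 to CD8_50, both were highest by lineage mean, with 309 and 192 TPM of Itgae and 693 and 569 TPM of Itgb7. Ccr7 went with both chains, at 0.63 with Itgb7 and 0.62 with Itgae, and with S1pr1 at 0.55 and Itga4 at 0.54. Itga4 also had 0.61 with Itgae, with which it does not pair, 0.38 with Itgb7 and -0.031 with Itgb1, its partners.

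Cd44 and Itgb1 formed a second set at 0.63, and Cd44 had 0.41 with Cxcr3. Across these sets the coefficients ran from -0.36 to 0.19: Ccr7 had -0.21 with Cd44 and -0.20 with Itgb1, S1pr1 had -0.36 with Itgb1, and Itgae had -0.26 with Cd44. S1pr1 had 0.19 with Cxcr3 and Itga4 had 0.13 with Cd44, about as high as S1pr1 with Itgb7 (0.20) or Cxcr3 with Itgb1 (0.13) inside the sets, which were thus not cleanly separated. Cd44 and Itgb1 followed the number of detected genes (rho 0.61 and 0.50), whereas Itgb7, Itgae, Itga4 and Ccr7 followed the share of Rn45s (0.60, 0.48, 0.43 and 0.41), and the part of either in the sets was not tested. Within lineages, after the lineage mean was removed, the 97 cells had Pearson's r of 0.65 for Ccr7 and Itgb7, 0.42 for Itgb7 and Itgae, 0.40 for Cxcr3 and Itgae, and 0.39 for S1pr1 and Cxcr3. The pair Cd44 and Itgb1 had 0.049 within lineages, so its link was one of lineage means.

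**Figure D5:**
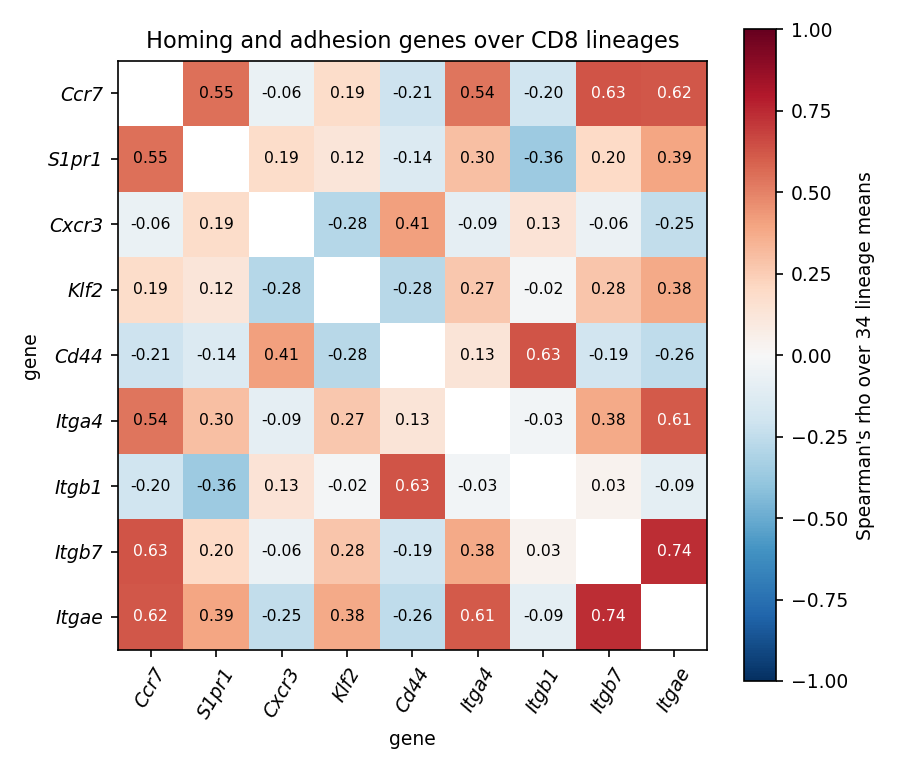
Spearman's rho between the 9 genes over the means of 34 CD8+ T-cell lineages; rows and columns are genes and the colour gives rho from -1 (blue) to 1 (red). Itgb7 and Itgae have the highest value (0.74), Ccr7 is positive with S1pr1, Itga4, Itgb7 and Itgae, and Cd44 is positive with Itgb1 (0.63).

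The genes whose lineage means were most like each of the 9, out of 9996, were the following. Gm12505 and Selplg, the P-selectin ligand, came first for Ccr7 (both 0.81), then Akap13 (0.76). Emc9, Smim8 and Ly6e came first for S1pr1 (0.74 to 0.68), and Prkca, Fyb and Ctla4 for Klf2 (0.64 to 0.59). Those of Cd44 were Tmem115, Nln and Pes1 (0.81 to 0.79), those of Cxcr3 Prpsap2, Wbp5 and Slc25a1 (0.67 to 0.63), and those of Itga4 Chp1, Nsg2 and Zfp191 (0.75 to 0.72). Itgb1 had Prpf3, Nsun2 and Nampt (0.77 to 0.76), Itgb7 had Igfbp4, Als2cl and Nfatc2 (0.78 to 0.77), and Itgae had Sash3 and Numa1 (0.79 and 0.78) before Itgb7.

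Lineages with more Klf2 were not shown to have more of its known target S1pr1. Klf2 lineage means ran from 0 to 3.50, with 14 of 34 lineages at 0, and rho with S1pr1 was 0.12 (adjusted p = 0.898). None of the 9996 genes was called in the permutation test of lineages by rho or by r, and 6.89% had an unadjusted p under 0.05. Among the other 8 genes, Itgae was the only one under that level, at 0.38 (p = 0.0276, adjusted p = 0.691). Ccr7 had 0.19, Itgb7 and Itga4 had 0.28 and 0.27, and Cd44 and Cxcr3 both had -0.28, with adjusted p from 0.757 to 0.838, and Itgb1 had -0.019 (adjusted p = 0.985). The lineage from CD8_59 to CD8_62, highest in Klf2, had S1pr1 at 0, 0, 26.6 and 17.2 TPM.

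None of the 9 genes was called in its relation to the time since division, which does not show that they are unrelated to it. It was recorded for 94 CD8+ T-cells in 31 lineages (0.5 to 9.48 h) and for all 81 L1210 cells (0.354 to 12.8 h). In CD8+ T-cells no gene of 9997 was called by rho in the permutation test, 14 by r, and 10.4% had an unadjusted p under 0.05. Itgb7 had rho -0.44 (p = 0.0139, adjusted p = 0.362), and -0.37 without the 2 farthest lineages. Cxcr3 had 0.37 (p = 0.0420, adjusted p = 0.467) and Itgae -0.35 (p = 0.0544, adjusted p = 0.493), and the other 6 lay between -0.28 and 0.11. In L1210 cells no gene was called by either coefficient, 5.03% had an unadjusted p under 0.05, and Cxcr3 had -0.41 (p = 0.0381, adjusted p = 0.972). Likeness of relatives in Itgae, Ccr7, Itgb1 and S1pr1 was still called on residuals on the hours since division.

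Compared with L1210 cells, activated CD8+ T-cells had more of 5 of the 9 genes and less of 3. Strain, activation, medium and cell type go together here and cannot be told apart. In L1210 cells Ccr7 was above 0 in 23 of 81 cells, Cxcr3 in 22, Itgb7 in 18, Itgae in 9 and Klf2 in 6, each with a median of 0 TPM, and Gzmb in 1. Cd44 was above 0 in 77 cells with a median of 48.6 and a maximum of 133 TPM. Itgb1 was above 0 in 77 with a median of 53.2 and a maximum of 121 TPM, and Itga4 in 78 with a median of 15.7 and a maximum of 50.4 TPM. S1pr1 was above 0 in 47 with a median of 4.06 and a maximum of 129 TPM. The leukemia cells thus held both chains of VLA-4 in nearly every cell and the chains of CD103 in few.

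Of 11373 genes tested on lineage means with limma, 63.6% were called, 13.5% as higher and 50.1% as lower in CD8+ T-cells, and the median difference over all genes was -0.41 in ln(TPM + 1). Ccr7 was higher by 5.15 (SE 0.244, adjusted p = 4.06e-30), and its lineage means ran from 0 to 2.54 in L1210 cells, overlapping the CD8+ T-cells only in their lowest lineage. Itgb7 was higher by 4.36 (SE 0.249, adjusted p = 1.61e-25), Cxcr3 by 4.16 (SE 0.285, adjusted p = 2.46e-21), Itgae by 2.13 (SE 0.323, adjusted p = 4.57e-08) and Klf2 by 0.75 (SE 0.201, adjusted p = 0.000997). Itgae and Klf2 were tested only because of their CD8+ T-cell values. Their ln(TPM + 1) exceeded 1 in 61.9 and 36.1% of CD8+ T-cells, against 3.70 and 7.41% of L1210 cells. The choice of genes thus favoured a higher value in CD8+ T-cells for both. With limma on all genes above 0 TPM, both were still called (adjusted p = 3.69e-07 and 0.00262). Cd44 was lower, at -1.88 (SE 0.247, adjusted p = 8.79e-10), as were Itgb1 at -1.78 (SE 0.26, adjusted p = 1.66e-08) and Itga4 at -1.11 (SE 0.206, adjusted p = 4.55e-06). S1pr1 was not shown to differ, at 0.24 (SE 0.32, adjusted p = 0.527) with a 95% interval from -0.39 to 0.86. In the order of lineage means within L1210 cells, Itgb1 (3.72 ± 0.647, SD, n = 26 lineages) and Cd44 (3.68 ± 0.69) came first and were not separated, followed by Itga4 (2.65 ± 0.701) and S1pr1 (1.52 ± 1.05).

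Of the other homing and adhesion genes, 13 of 24 tested were called higher and 7 lower in CD8+ T-cells, beside 13.5% and 50.1% of all genes. The adhesion molecule Cd2 was higher by 4.39, the selectin ligand Selplg by 2.96 and Ccr4 by 2.99. The bone marrow homing receptor Cxcr4 was lower, at -2.48, as was Gcnt1 at -1.56. The naive and memory list had 7 of 10 higher and 2 lower, the effector list 6 of 9 higher and 2 lower, and the integrin partners 4 of 10 higher and 1 lower, led by the adaptor Skap1 at 4.76. Skap1 and Ccr4 were common enough to be tested in CD8+ T-cells only, and Cxcr4 and Gcnt1 in L1210 cells only. The choice of genes thus favoured the direction found for each of them.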

How the data were processed

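The authors sequenced Smart-Seq2 libraries of single cells and deposited RSEM (version 1.2.3) estimates as TPM for UCSC genes of mm10, and the processing notes also name bcl2fastq, TopHat2 and GenomeStudio. Since TPM share 1 total per library, a gene of high abundance such as Rn45s (median 22.6% of the total in CD8+ T-cells) lowers the others. Values were taken as ln(TPM + 1), and genes were tested where that value exceeded 1 in over 10% of the cells of their type. In the comparison of cell types, passing this filter in either type was enough. The detection weights of the study were not applied. Lineages came from the sister labels and the cousin labels that name each other. Permutation tests used 100000 resamples (20000 in alternatives), were 2-sided and were adjusted by Benjamini and Hochberg over all genes tested. Cell types were compared with limma 3.58.1 in R 4.3.3 (trend, on lineage means), and the rest was run in Python 3.11.15 with numpy 2.4.6 and scipy 1.17.1. The methods were tested on simulated data. The 9 genes and all lists were chosen with earlier results of these data known. The 9 genes and Gzmb are named in every result, up to 8 called genes per list and result by lowest p from the homing, naive and memory and effector lists, and the 3 genes most like each of the 9. Rasgrp2, Skap1 and the examples of lineages were named after their values were seen. Of the marker lists, Cd8a and Cd8b1 were the only members called alike among relatives. Some genes of the homing and marker lists are not reported here and were left out of their counts.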

Additional observations from a re-analysis of the deposited data

How the results depend on the processing

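The genes called more alike among CD8+ T-cell relatives fell from 680 to 231 in the sign-flip test over lineages (2 of the 9 genes instead of 4) and to 204 with sister pairs only. In L1210 cells the count of 351 became 232 with a pseudocount of 0.1 TPM, 545 in the Mann-Whitney U-test on pairs, 35 in the sign-flip test, 138 with sister pairs only and 634 on residuals on hours since division, and 1 of the 9 genes (Itga4) was called with a pseudocount of 10 TPM. The genes tied to Gzmb fell from 434 to 267 with all genes above 0 TPM, 283 without Rn45s, 122 on residuals on detected genes and 282 without the 2 farthest lineages, and none of the 9 genes (0 in place of 1) was called in these 4. With a pseudocount of 10 TPM, genes in more than 50% of cells, at least 4000 detected genes, or lineages with 2 or more cells, 2 of the 9 were called (Ccr7 and Cd44). Without the lineage at 0 for Cd8b1, 1 of the 9 was called, Cd44 in place of Ccr7, and without the 2 lineages lowest in Cd8b1 none was (0). In both, the 8 genes called between cell types and the 3 neighbours separated in the order of levels stayed the same, and no gene was called with Klf2, with time or in the difference in likeness between cell types. The causes were not tested. Signs changed for uncalled values only: the likeness of Ccr7 in L1210 cells (0.258% with a pseudocount of 0.1 TPM, 1.47% with at least 4000 detected genes, -3.94 to 3.50% with each lineage left out), that of Itgb7 in L1210 cells with sister pairs (4.05%), Cxcr3 with Gzmb (0.0876 by Pearson's r, 0.0447 without the 2 farthest lineages, 0.0253 without the 2 lineages lowest in Cd8b1, -0.0989 to 0.0251 with each lineage left out, the last 2 added after seeing the data) and Itgb7 with Klf2 by Pearson's r (-0.0159). In the comparison of cell types, all 11 alternatives kept 8 called genes with their direction, except that Klf2 could not be tested in genes in more than 50% of cells. None of the alternatives, at 20000 resamples, called a gene with Klf2 or with time, whereas r with 100000 resamples called 14 genes with time in CD8+ T-cells, none of them among the 9. No paired analysis was possible because the replicate numbers in the titles only name cells and the comparisons are over lineages. S1pr1 and Klf2 were above the filter in less than 50% of CD8+ T-cells, so they could not be fitted there. TPM keep no depth, which limits genes of low expression such as Klf2 and Itga4.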
